A study of Mus musculus with 2 samples.

Results

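The arterial endothelium of the newborn mouse lung was described from single-cell RNA-seq of whole lung at postnatal day 1 (PND1). Drop-seq, which captures single cells with barcoded beads in droplets and counts molecules by unique molecular identifiers (UMIs), was run on 2 batches of wt C57BL/6J lung. Each batch held left and right lobes of 1 female mouse, dissociated with TrypLE and collagenase and treated with a red cell lysis buffer. There was no treated group, no other age and no other genotype. The only comparison possible is therefore between cells of the same lungs.

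The arterial cells were chosen by UMI counts. Of 9944 cells in both batches, 8003 had at most 10% mitochondrial UMIs, and 2122 of these were endothelial, with at least 3 UMIs over Pecam1, Cdh5, Egfl7, Cldn5 and Ramp2, no Ptprc or Epcam UMI and fewer than 3 Col1a2 UMIs. A cell was called arterial where Gja5, Gja4, Bmx, Dkk2, Sema3g and Hey1 summed to at least 2 UMIs and the capillary genes Car4, Apln, Ednrb and Fibin to fewer than 2. This kept 184 cells, 62 in Batch 1 and 122 in Batch 2, and left 1938 other endothelial cells. The others comprised 727 cells with at least 2 UMIs of Car4, Apln, Ednrb and Fibin (the Car4 set), 202 cells that reached 2 UMIs in both the arterial and the capillary genes, 37 lymphatic cells and 972 remaining cells. No cell barcode was shared between the batches.

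In an artery the endothelium lines an elastic wall and carries blood at high pressure. Arterial identity is set by Notch signalling between neighbouring cells, with ephrin-B2 on the arterial side and the receptor Ephb4 on the venous side. Arterial endothelial cells are joined by gap junctions built from the connexins Gja4 and Gja5, and they make part of the elastic lamina beneath them. In the lung, pulmonary arteries branch with the airways and feed a dense capillary bed made of general capillary cells and of large Car4-positive cells called aerocytes.

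The cells called arterial by this rule made up 8.67% of the endothelial cells (95% exact binomial interval 7.51 to 9.95). The share was 10.3% in Batch 1 (7.96 to 13.0) and 8.04% in Batch 2 (6.72 to 9.52). With every cell thinned to 1000 UMIs before the rule was applied, 92 of 1705 cells were kept, a share of 5.40%. The thinned shares of the batches were 5.13% and 5.48%. These intervals cover counting error only, and a dissociated lung need not release all vessels alike. The share counts every cell that met the rule, including 59 with UMIs of only Gja4 and Hey1. In those 59, none of 25 tested arterial markers outside the rule passed against the remaining endothelial cells. The arterial cells had a median of 1637.5 UMIs and 974.5 genes in Batch 1 and of 1712 UMIs and 976 genes in Batch 2. The other endothelial cells had a median of 1347.5 UMIs in Batch 1 and 1921.5 in Batch 2, so the arterial cells were the deeper group in one batch and the shallower in the other. Summed arterial counts came to 144475 UMIs in Batch 1 and 325583 in Batch 2. The median mitochondrial share of the arterial cells was 1.72% in Batch 1 and 5.96% in Batch 2, close to the 1.71% and 5.63% of the other endothelial cells.

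Most arterial cells showed 1 or 2 of the 6 genes. Hey1, a transcriptional repressor downstream of Notch, had a UMI in 40 of 62 cells and 84 of 122 cells (Batch 1 and Batch 2, here and below). Sema3g, a secreted semaphorin, had one in 36 and 73 cells, and the connexin gene Gja4 in 28 and 37. The connexin gene Gja5 had a UMI in 10 and 16 cells, the tyrosine kinase gene Bmx in 10 and 32, and the Wnt modulator gene Dkk2 in 4 and 15. Of the 184 cells, 62 carried just 1 of the 6 genes, 79 carried 2, 23 carried 3 and 20 carried 4 or more: 8 with 4, 8 with 5 and 4 with all 6. Hey1 alone kept 35 cells and Sema3g alone 20, whereas Gja5 or Dkk2 alone kept none. The most frequent pair was Sema3g with Hey1, in 61 cells, followed by Gja4 with Hey1 in 41 and Gja4 with Sema3g in 37. The cells just inside the limit, with exactly 2 arterial UMIs, numbered 86 (46.7%), and the highest sum was 30 UMIs in each batch. These counts describe the choice and are not tested.

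Because the 6 genes chose the cells, each was measured in cells kept by the other 5. The left-out gene then took no part in the choice, although its level still came from the same libraries. Levels are given as CPM, the gene's UMIs summed over the cells of a group and scaled to a fixed total of UMIs per group. Differences are edgeR quasi-likelihood log2 fold changes ± SE with the batch as a block, and p-values are adjusted over all genes tested. Only 2 mice give the spread behind the p-values. The test also pools spread over genes, separately in the fit for each left-out gene. The size of a p-value is therefore no measure of replication and cannot be compared between these fits. Bmx (3.90 ± 0.33) and Dkk2 (3.90 ± 0.38) had close fold changes and SEs, but edgeR adjusted p-values of 0.0021 and 1.5e-21.

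Each of the 6 genes was higher in cells kept by the other 5 than in the rest of the endothelium. Gja5 was at 160.2 and 92.7 CPM in the cells kept without it and at 6.54 and 9.51 CPM in the rest, a log2 fold change of 3.74 ± 0.41 (adjusted p = 0.00063). Bmx was at 138 and 200.1 CPM against 6.50 and 15.2 (3.90 ± 0.33, adjusted p = 0.0021). Dkk2 was at 166 and 134 CPM against 2.80 and 13.8 (3.90 ± 0.38, adjusted p = 1.5e-21). These 3 genes had the largest fold changes of the set, with both batches far above both batches of the rest. Gja4 (1.88 ± 0.32, adjusted p = 8.2e-07) and Sema3g (1.86 ± 0.23, adjusted p = 8.7e-14) rose less. The rest of the endothelium held 55.6 and 35.7 CPM of Gja4 and 72.5 and 96.8 CPM of Sema3g. Hey1 had the smallest fold change, 1.27 ± 0.26 (adjusted p = 0.00012), with 306 and 252 CPM against 96.2 and 125. Cells that needed the left-out gene to meet the rule counted with the rest in its fit. The rule kept 37 and 64 cells without Hey1 and 42 and 87 without Sema3g, but 61 and 120 without Gja5. The order of the 6 fold changes therefore depends in part on this procedure. None of the 6 passed without the batch block, and with DESeq2 all but Hey1 passed.

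**Figure D1:**
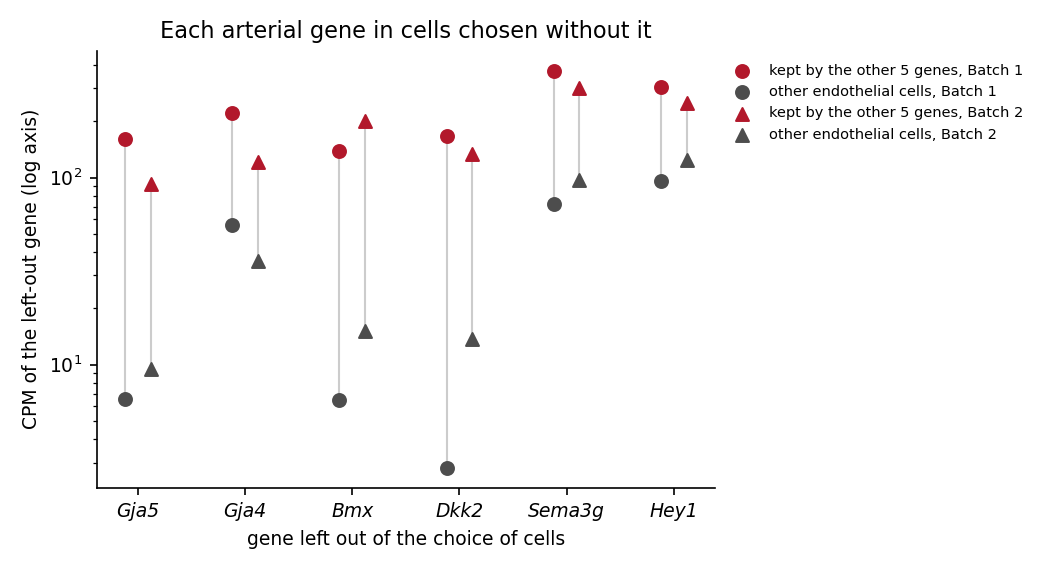
CPM (log axis) of each of the 6 arterial genes in endothelial cells kept by the other 5 genes (red) and in the rest of the endothelium (grey), by batch (circles Batch 1, triangles Batch 2), with a line joining the values of a batch. Red points lie above grey points for every gene in both batches; the distance is longest for Gja5, Bmx and Dkk2 and shortest for Hey1, at 306 and 252 against 96.2 and 125 CPM.

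In GRCm38 (mm10) coordinates with GENCODE gene models, Gja5 lies at chr3:96904693-97077416, Gja4 at chr4:127311421-127314039, Bmx at chrX:164192842-164258193, Dkk2 at chr3:132085292-132180304, Sema3g at chr14:31217860-31230352 and Hey1 at chr3:8663359-8667256. Of the genes outside the rule described next, Cxcl12 lies at chr6:117168535-117181367 and Mgp at chr6:136872435-136875823, while Igf2 (chr7:142650766-142666816) and H19 (chr7:142575529-142578143) are neighbours.

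Genes that the rule did not use were compared between the arterial cells and all other endothelial cells. Of 7455 genes tested, 70 were higher in the arterial cells (0.939%) and 49 were lower (0.657%) at an adjusted p under 0.05. Without the batch block no gene passed in either direction (237 at an unadjusted p under 0.05), and DESeq2 called 20 higher and 3 lower, all among these 119. The median log2 fold change over all genes was 0.0014. A list of 30 arterial markers outside the rule stood at 8057 and 11128 CPM in sum in the arterial cells and at 4473 and 4995 CPM in the others. Of its 27 tested members, 15 rose, none fell, and the median log2 fold change was 1.14. This and the other gene lists were chosen with earlier results of these data known. Their counts here and below are a description and no independent support for the name of the cells. The rising members included secreted factors, matrix genes, Notch and ephrin ligands and 1 transcription factor.

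Cxcl12, the chemokine that recruits Cxcr4-bearing cells, was the gene with the smallest adjusted p. It was at 1253 and 1192 CPM in the arterial cells and at 283 and 277 CPM in the others, a log2 fold change of 2.16 ± 0.14 (adjusted p = 1.2e-11). Cxcl12 was found in 28 of 62 arterial cells (45.2%, exact interval 32.5 to 58.3) and in 56 of 122 (45.9%, 36.8 to 55.2). It was found in 13.8% and 14.2% of the other endothelial cells and in 1 of 38 (2.63%, 0.067 to 13.8) and 19 of 548 (3.47%, 2.10 to 5.36) epithelial cells. Epithelial cells were those with at least 2 Epcam UMIs, fewer than 3 UMIs of the 5 endothelial genes and no Ptprc UMI. They should lack Cxcl12 and had higher median depths of 3703 and 5751.5 UMIs. At 1000 UMIs per cell the arterial shares were 30.4% and 39.1% and the other endothelial shares 10.8% in each batch. Its receptor Cxcr4 was also higher in the arterial cells, at 125 and 55.3 CPM against 44.9 and 8.33 (2.09 ± 0.40, adjusted p = 0.0020).

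Mgp, which encodes a matrix protein that inhibits calcification and BMP signals, was at 865 and 1290.0 CPM in the arterial cells and at 218 and 171 CPM in the others (2.57 ± 0.17, adjusted p = 1.3e-11). Unlike Cxcl12, Mgp sat in few cells: 9 of 62 and 36 of 122 had a UMI, and 1 cell held 40.8% of the Mgp UMIs of the arterial cells of Batch 1. An Mgp UMI was found in 11.8% and 12.2% of the other endothelial cells and in 2.63% and 12.6% of the epithelial cells. Tm4sf1, a surface protein of endothelial cells, was in 53 of 62 and 92 of 122 arterial cells, at 1398 and 1554 CPM against 752 and 578 (1.22 ± 0.14, adjusted p = 7.5e-07). Its share of epithelial cells was 10.5% and 11.5%. Pcsk5, a proprotein convertase, was at 311 and 197 CPM against 75.7 and 72.1 (1.72 ± 0.22, adjusted p = 1.0e-05). Igfbp3, a carrier of insulin-like growth factors, rose by 1.36 ± 0.18 on the log2 scale (adjusted p = 1.7e-05), although its level differed between batches, at 145 and 943 CPM against 44.9 and 398.

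Igf2, a fetal growth factor, was at 512 and 1014 CPM in the arterial cells and at 124 and 215 CPM in the others (2.2 ± 0.16, adjusted p = 9.5e-11). Its imprinted neighbour H19, a noncoding RNA, was at 623 and 854 CPM against 198 and 177 (2.05 ± 0.17, adjusted p = 9.8e-10). Of the 184 arterial cells, 52 had an Igf2 UMI, 38 an H19 UMI and 32 both. An Igf2 UMI was also found in 15.8% and 35.4% of the epithelial cells, against 19.4% and 32.8% of the arterial cells. The epithelial cells were deeper, so these shares are not at equal depth. Igf2 and H19 were not highest in the arterial cells, since lymphatic cells held 1139 and 2525 CPM of Igf2 and 2394 and 2381 CPM of H19.

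**Figure D2:**
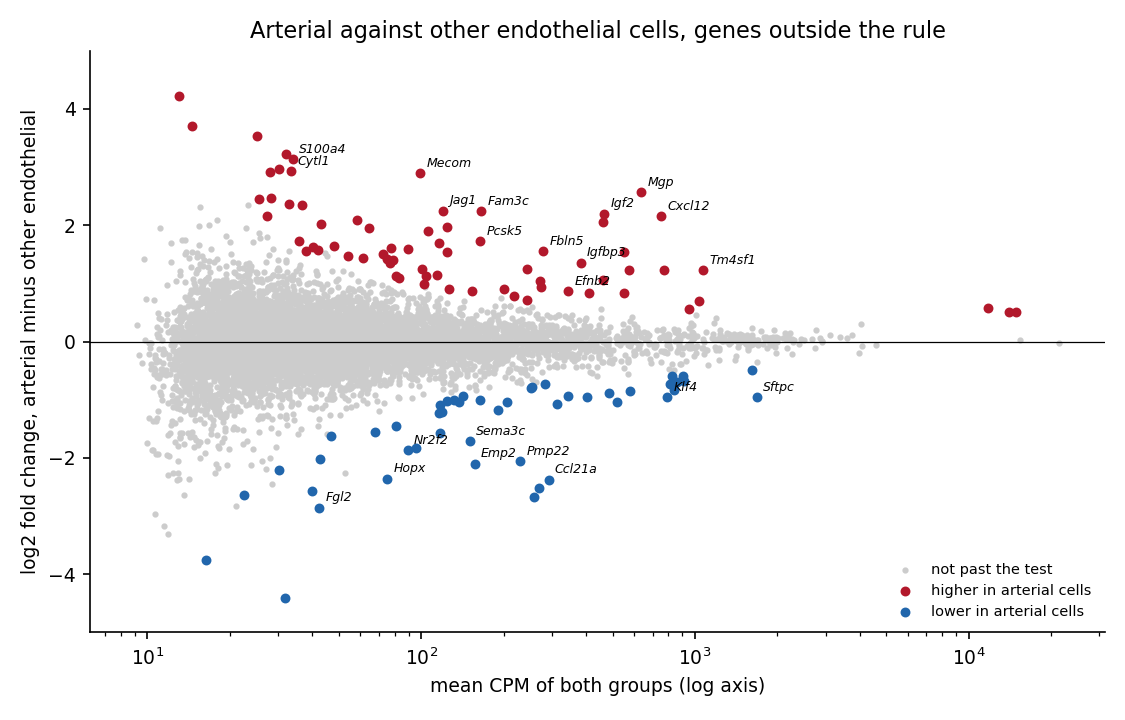
Log2 fold change of arterial minus other endothelial cells (y axis) against the mean CPM of both groups (x axis, log axis) for the tested genes outside the rule; 1 gene lies beyond the y axis and is not drawn. Coloured points passed an adjusted p under 0.05, 70 higher (red) and 49 lower (blue), and Mgp (2.57) and Cxcl12 (2.16) combine a high level with a large fold change.

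Among transcription factors, Mecom stood out. Mecom, also called Evi1, was at 90.0 and 258 CPM in the arterial cells and at 17.8 and 30.9 CPM in the others (2.90 ± 0.31, adjusted p = 2.4e-07). It was detected in 8 of 62 and 35 of 122 arterial cells, against 2.58% and 5.73% of the others. Mecom was in 42.1% and 51.8% of the deeper epithelial cells. Gata6 rose by 1.61 ± 0.32 (132 and 104 CPM against 31.8 and 42.6, adjusted p = 0.0036). It did not pass with DESeq2 or without the cells of 8 or more arterial UMIs. Over the list of endothelial transcription factors, 22 of 26 were tested, 2 rose, 3 fell and the median was -0.30. The 3 that fell were Nr2f2 (-1.87 ± 0.32), the venous and lymphatic factor COUP-TFII, and Klf4 (-0.95 ± 0.15) and Tbx3 (-1.08 ± 0.19). Nr2f2 was at 41.5 and 33.8 CPM against 155 and 127. Sox17, a factor of arterial specification in the embryo, was at 408 and 467 CPM against 448 and 423, a log2 fold change of 0.07 ± 0.16 that did not pass the test.

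In the Notch pathway 3 genes passed, each of them dependent on the choice of cells. Jag1, a Notch ligand, was at 152 and 246 CPM in the arterial cells and at 26.2 and 57.6 CPM in the others (2.25 ± 0.26, adjusted p = 1.3e-06), and at 0.82 on the log2 scale without the cells of 8 or more arterial UMIs, where it did not pass. The receptor gene Notch1 was at 187 and 326 CPM against 142 and 151 (0.90 ± 0.21, adjusted p = 0.014), but at -0.040 on the log2 scale with cells thinned to 1000 UMIs. The feedback target Nrarp rose by 1.56 ± 0.41, just inside the threshold (adjusted p = 0.049), and did not pass without those strong cells (1.32). Neither Notch1 nor Nrarp passed with DESeq2. Of 12 tested members of the 19 listed, these 3 rose, none fell and the median was 0.39. The ligand Dll4 was at 83.1 and 76.8 CPM against 49.6 and 44.3, and the receptor Notch4 at 83.1 and 82.9 against 59.8 and 65.4, and neither passed. The target Hes1 was at 201 and 430 CPM against 301 and 436 and did not pass.

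Of 16 tested ephrin and guidance genes, 3 rose and 1 fell, with a median of 0.15. The arterial ligand Efnb2 was at 367 and 519 CPM in the arterial cells and at 166 and 328 CPM in the others (0.87 ± 0.18, adjusted p = 0.0043). Efna1 (0.86 ± 0.22) and the semaphorin receptor Plxnd1 (1.15 ± 0.26) also rose, and Sema3c, a secreted semaphorin, fell (-1.71 ± 0.28, 111 and 43.0 CPM against 239 and 209). The coreceptor Nrp1 was at 706 and 455 CPM against 641 and 477, a log2 fold change of 0.06 ± 0.15. Of 19 tested genes of the VEGF, angiopoietin, chemokine and PDGF list, 4 rose (Cxcl12, Cxcr4, Igf2 and Esm1) and the chemokine scavenger Ackr3 fell. The median of that list was 0.06. Esm1, a proteoglycan of sprouting endothelium, was at 55.4 and 79.9 CPM against 18.7 and 17.6 (2.02 ± 0.40), and the VEGF receptor gene Kdr was at 166 and 197 CPM against 322 and 244 (-0.52 ± 0.21, not passed).

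The list of elastic lamina and basement membrane genes had the most calls after the markers. Of its 29 tested members, 9 rose, none fell, and the median was 0.30. They were Eln, the elastin gene (1.40 ± 0.34), the fibrillin gene Fbn1 (1.50 ± 0.31), the elastic fibre assembly genes Fbln5 (1.56 ± 0.22), Fbln2 (1.03 ± 0.19) and Ltbp4 (1.69 ± 0.26), the elastin and collagen cross-linking enzyme gene Lox (2.35 ± 0.43), the fibronectin gene Fn1 (1.44 ± 0.36), Sparcl1 (0.56 ± 0.13) and Mgp. Fbln5 was at 263 and 547 CPM in the arterial cells and at 169 and 135 CPM in the others. Eln was at 159 and 76.8 CPM against 38.3 and 42.3. Several of these genes are also list members of the arterial markers, so the lists are not separate evidence. A Fbln5 UMI was found in 9 of 62 and 42 of 122 arterial cells, and in 28.9% and 41.1% of the deeper epithelial cells.

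Among vasoactive genes 1 rose and 2 fell of 17 tested, with a median of -0.15. Edn1, the gene of the constrictor endothelin-1, rose by 0.94 ± 0.21 (adjusted p = 0.011), but only Batch 2 was higher, at 639 against 283 CPM. In Batch 1 Edn1 was at 83.1 against 90.7 CPM. The anticoagulant receptor gene Thbd (-0.85 ± 0.15) and the prostaglandin synthase gene Ptgs1 (-1.56 ± 0.34) fell. Nos3, the endothelial nitric oxide synthase gene, was at 90.0 and 101 CPM against 45.8 and 89.9 and did not pass. None of 13 tested junction genes passed; Gja1, another connexin gene, was at 48.5 and 55.3 CPM against 43.9 and 19.3. In the BMP and TGF-beta list 1 of 17 tested genes passed, Ltbp4. No cell cycle gene passed of 9 tested and no immediate early gene of 12.

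The genes that were lower in the arterial cells included members of the capillary, venous, lymphatic and epithelial lists. Pmp22, a membrane protein gene, was at 48.5 and 120 CPM against 308 and 445 (-2.05 ± 0.23, adjusted p = 8.4e-07). Emp2, of the same protein family, was at 90.0 and 27.6 CPM against 382 and 128 (-2.10 ± 0.28). Of the 8 tested aerocyte markers outside the rule, Emp2 and Prx fell and none rose (median -0.52). The limit on Car4, Apln, Ednrb and Fibin UMIs was applied to the arterial cells alone. Lower levels of genes that go with these were therefore partly built into the comparison. Against the remaining cells, where both sides had that limit, none of 9 tested passed (median -0.34). Of 12 general capillary markers, Hpgd and Sema3c fell, Ptprb rose and the rest did not pass (median -0.08). A Gpihbp1 UMI was found in 32 of 62 and 59 of 122 arterial cells and in 0 of 38 (exact interval up to 9.25%) and 11 of 548 epithelial cells, and a Plvap UMI in 36 and 65 arterial and in 1 and 19 epithelial cells. Gpihbp1, which carries lipoprotein lipase across capillary cells, was at 754 and 547 CPM against 538 and 479, and Plvap, of fenestral diaphragms, was at 540 and 461 CPM against 421 and 474. The capillary list as a whole stood at 4271 and 4917 CPM in the arterial cells and at 3900 and 4929 CPM in the others. Lyve1, often used to mark lymphatic vessels, was at 3558 and 5102 CPM in the arterial cells and at 2437 and 5093 CPM in the others, and lymphatic cells held 2245 and 7052 CPM.

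The strength of the arterial signal varied widely among the 184 cells. Endothelial cells with fewer than 2 capillary UMIs were ordered by their arterial UMIs, and the 30 markers outside the rule were summed at each step. From 0 over 1, 2, 3, and 4 to 7 arterial UMIs up to 8 or more, the markers stood at 3845, 5430, 5091, 6406, 6873 and 18283 CPM in Batch 1. In Batch 2 they stood at 4009, 4475, 6250, 7019, 11177 and 23477 CPM. The steps of 0 and 1 UMI lie outside the rule and include the lymphatic cells. The cells just outside the limit, with 1 UMI, numbered 77 and 125, and those just inside, with 2, numbered 32 and 54. Their marker levels overlapped, at 5430 and 4475 CPM with 1 UMI and 5091 and 6250 CPM with 2.

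The step at 8 or more arterial UMIs held 21 cells, 6 in Batch 1 and 15 in Batch 2, with median depths of 4689 and 3239 UMIs. In these cells Mgp reached 3923 and 4444 CPM, against 265 and 146 CPM at 0 arterial UMIs, and a Mgp UMI was present in 5 of 6 and 12 of 15. Cxcl12 reached 2591 and 1807 CPM, against 113 and 158. Igf2 was found in 5 of 6 and in 15 of 15 of them, Jag1 in 4 of 6 and 14 of 15, and Mecom in 2 of 6 and 14 of 15. Of the general capillary genes, Plvap was lower there, at 222 and 133 CPM, against 497 and 476 at 0 arterial UMIs, and Gpihbp1 at 518 and 193 against 562 and 576. The steps of 2, 3, and 4 to 7 arterial UMIs showed no steady fall from the level at 0. Plvap was there at 420, 1044 and 804 CPM in Batch 1 and at 632, 510 and 448 in Batch 2. Gpihbp1 was at 657, 759 and 1286 CPM in Batch 1 and at 814, 540 and 461 in Batch 2. Among arterial cells with 2 to 7 arterial UMIs, Mgp was at 162 and 465 CPM, Cxcl12 at 945 and 1031, Eln at 8.51 and 34.9, and Jag1 at 17.0 and 105. These steps are a description and were not tested, and their median depths ran from 1234 to 4689 UMIs in Batch 1 and from 1516.5 to 3239 in Batch 2.

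**Figure D3:**
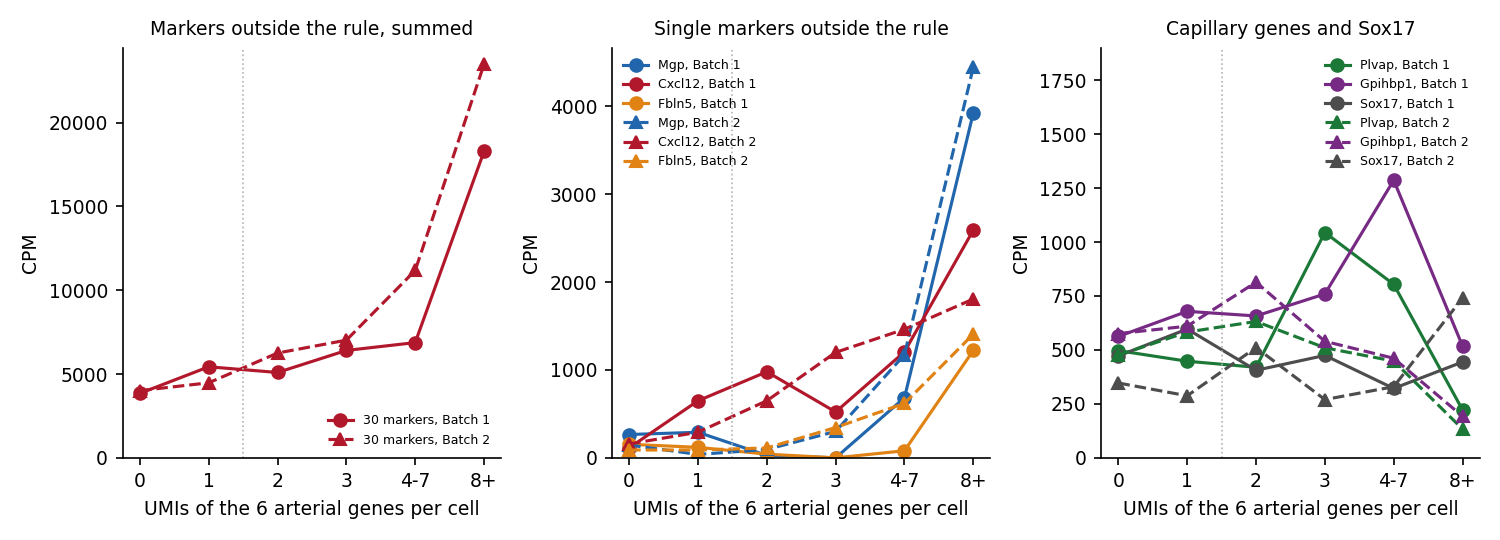
CPM (y axes, from 0) in endothelial cells with fewer than 2 capillary UMIs, grouped by the UMIs of the 6 arterial genes per cell (x axes), for the 30 markers outside the rule (left), Mgp, Cxcl12 and Fbln5 (middle) and Plvap, Gpihbp1 and Sox17 (right); solid lines and circles are Batch 1, dashed lines and triangles Batch 2, and the dotted line is the limit of the rule. The markers climb from 3845 and 4009 CPM at 0 UMIs to 18283 and 23477 at 8 or more, Cxcl12 is above its level at 0 UMIs from 1 UMI on, and Mgp has its largest step at 8 or more.

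The comparison was repeated without endothelial cells of 8 or more arterial UMIs, the 21 arterial cells and 22 that also carried capillary genes. Without those cells the counts fell to 24 higher and 38 lower, of which 53 were among the 119 called with all cells. Cxcl12 (2.22), Pcsk5 (1.90), Mecom (2.58), Tm4sf1 (0.94), Efnb2 (0.85), Igfbp3 (0.93), Igf2 (1.18) and Mgp (1.08) still passed, the last 2 at a smaller log2 fold change. Fbln5 (0.74), Jag1 (0.82), Ltbp4 (0.84), Fam3c (0.52) and Fbn1 (0.27) no longer passed, and Eln (-0.48) and Fbln2 (-0.28) turned to the other direction without passing. The calls of these matrix genes and of Jag1 were thus not kept without these few cells. Gata6 (1.135), Plxnd1 (0.63), Esm1 (1.69), Efna1 (0.88) and Fn1 (0.86) did not pass without them either. Among the genes that fell, Pmp22 (-1.91), Emp2 (-2.25), Nr2f2 (-1.68) and Klf4 (-0.88) passed without them as well.

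**Figure D4:**
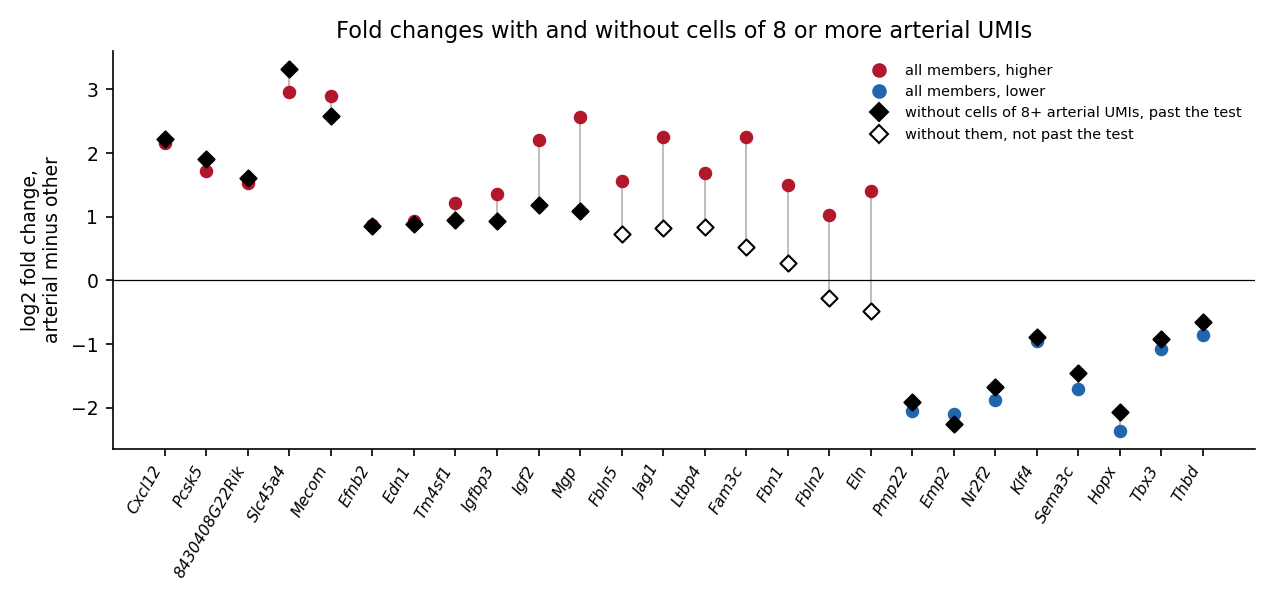
Log2 fold change, arterial minus other endothelial cells (y axis), of named genes (x axis) with all cells (circles, red higher and blue lower) and without cells of 8 or more arterial UMIs (diamonds, filled where the gene still passed an adjusted p under 0.05). Without those cells Cxcl12 (2.22) and Pcsk5 (1.90) are no lower, and Mecom falls from 2.90 to 2.58. Fbln5, Jag1, Ltbp4, Fam3c, Fbn1, Fbln2 and Eln drop and no longer pass.

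The arterial cells were also set against each other endothelial group, with the lymphatic cells and their genes kept apart. Against the Car4 set, 67 of 5939 tested genes were higher (1.13%) and 50 lower (0.842%). Of 26 tested arterial markers outside the rule, 14 rose and none fell (median 1.40, all genes 0.007). H19 was at 33.8 and 80.4 CPM in the Car4 set (log2 fold change 3.55 ± 0.22) and Mecom at 10.1 and 22.6 CPM (3.43 ± 0.39). Pmp22 was at 628 and 594 CPM in the Car4 set, far above both arterial values (-2.67 ± 0.29), and Emp2 at 770 and 185 CPM (-2.88 ± 0.29). The transcription factor genes Foxf1, Klf4, Nr2f2, Tbx2 and Tbx3, were lower in the arterial cells, and Gata6 and Mecom were higher. Of the aerocyte markers outside the rule 4 of 9 tested fell (Tbx2, Prx, Emp2 and Icam2), and Gpihbp1 and Ptprb were higher in the arterial cells. The capillary genes of the rule chose the Car4 set, so lower aerocyte markers in the arterial cells were partly built into this comparison.

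Against the remaining endothelial cells, which had fewer than 2 UMIs of the arterial and fewer than 2 of the capillary genes, 40 of 5939 were higher (0.674%) and 20 lower (0.337%). Of 26 tested arterial markers 13 rose and none fell (median 1.29, all genes -0.008). Cxcl12 was at 241 and 201 CPM in the remaining cells (2.51 ± 0.22) and Jag1 at 16.5 and 42.6 CPM (2.72 ± 0.33). H19 (4.49 ± 0.24) and Igf2 (3.56 ± 0.20) had larger fold changes here than against all other cells, because the remaining cells held just 24.8 and 39.8 CPM of H19 and 34.7 and 95.3 CPM of Igf2. Of 11 tested general capillary markers Sema3c fell and none rose (median -0.19), and of 9 tested aerocyte markers none passed.

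Set against the 37 lymphatic cells, the arterial cells differed in 564 genes, 335 higher (5.64%) and 229 lower (3.86%) of 5939, with a median log2 fold change of 0.128 over all genes. Of 21 tested endothelial transcription factors 12 were higher in the arterial cells and 2, Elk3 and Nr2f2, lower. The hypoxia factor gene Epas1 was at 671 and 845 CPM in the arterial cells and at 16.5 and 52.3 CPM in the lymphatic cells (4.46 ± 0.38), and Sox17 was at 408 and 467 CPM against 16.5 and 39.3 (3.99 ± 0.52). Nr2f2 was at 429 and 419 CPM in the lymphatic cells, against 41.5 and 33.8 (-3.50 ± 0.40). Flt4, the receptor of lymphatic growth factors, was at 380 and 837 CPM in the lymphatic cells, against 48.5 and 73.7. Jag1, Pcsk5, Gata6 and Npr3, a natriuretic peptide clearance receptor gene, had no UMI in lymphatic cells of either batch, which allows a level of up to 21.9 CPM over 137008 UMIs. Npr3 was at 249 and 356 CPM in the arterial cells. Igf2 (-1.19 ± 0.18) and H19 (-1.63 ± 0.19) were lower in the arterial than in the lymphatic cells. The 10 vasoactive genes that were higher, of 17 tested, included Nos3, Ace and Edn1, and none was lower.

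**Figure D5:**
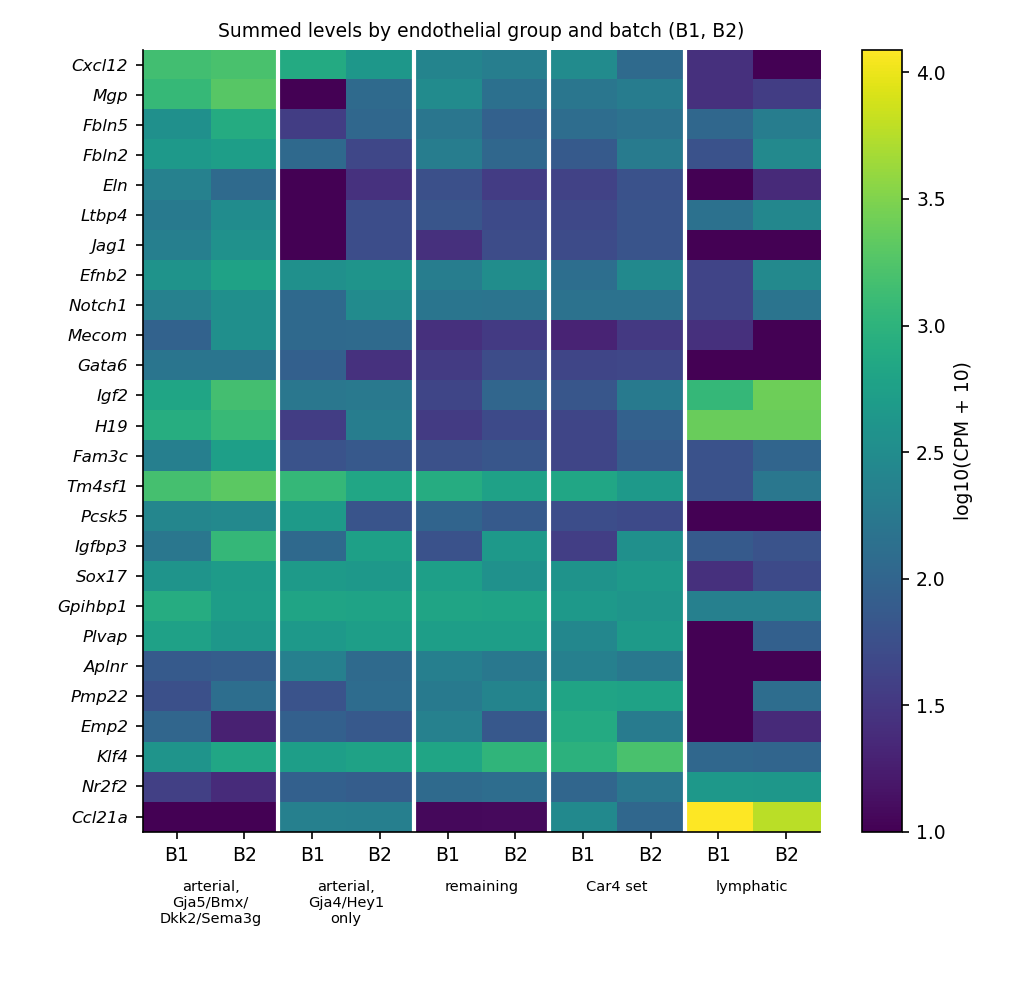
Summed level, as log10(CPM + 10), of 26 genes outside the rule (rows) in 5 endothelial groups by batch (columns B1 and B2): arterial cells with a Gja5, Bmx, Dkk2 or Sema3g UMI, arterial cells with only Gja4 and Hey1, remaining cells, the Car4 set and lymphatic cells. Cxcl12 is highest in the first 2 columns (1428 and 1598 CPM), Pmp22 in the Car4 set (628 and 594 CPM), and Igf2 and H19 in lymphatic cells.

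Within the arterial cells, 125 had a UMI of Gja5, Bmx, Dkk2 or Sema3g (43 and 82), and 59 were kept by Gja4 and Hey1 only (19 and 40). Median depths were alike, at 1618 and 1752.5 UMIs in the first kind and 1657 and 1674.5 in the second. Of 3921 genes tested, 24 were higher in the first kind (0.612%) and 4 lower (0.102%). Of 25 tested arterial markers outside the rule, 7 were higher and none lower, with a median of 1.07 beside -0.004 for all genes. Mgp was at 1174 and 1918 CPM in the first kind and at 0 and 106 CPM in the second (adjusted p = 1.7e-05). Jag1 was at 207 and 353 CPM against 0 and 44.3 (adjusted p = 0.0030). Fbln5 was at 348 and 785 CPM against 26.3 and 97.5 (3.05 ± 0.50), Igf2 at 639 and 1462 CPM against 158 and 168 (2.97 ± 0.30), and H19 at 836 and 1203 CPM against 26.3 and 195 (2.98 ± 0.36). Cxcl12 was higher in the first kind too, at 1428 and 1598 CPM, but the second kind kept 763 and 425 CPM of it. Without the 21 cells of 8 or more arterial UMIs, all of which were of the first kind, 5 genes were higher and none lower, namely Igf2 (1.83, adjusted p = 0.015) and the hemoglobin genes Hba-a1 (3.04), Hba-a2 (3.04), Hbb-bs (2.94) and Hbb-bt (3.49). Mgp was then at 2.92 (adjusted p = 0.061), Fbln5 at 2.17 and H19 at 1.08, and none of these 3 passed. The 4 hemoglobin genes lost their call without cells high in hemoglobin or surfactant UMIs, at 0.38 to 0.55 on the log2 scale.

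The cells kept by Gja4 and Hey1 only were few, 19 and 40. Against the remaining cells 1 gene, Nrp2, was higher (0.0255%) and 8 were lower (0.204%), and none of 25 tested arterial markers passed in either direction (median -0.11, all genes -0.017). Of these 25 markers, 11 had a positive log2 fold change, and values ran from -3.85 to 2.19. Cxcl12 and 8430408G22Rik were among the 11. Cxcl12 was at 763 and 425 CPM against 241 and 201 (1.25 ± 0.32, adjusted p = 0.22), and 8430408G22Rik, a marker on the list, at 158 and 292 CPM against 44.6 and 112 (1.38 ± 0.36, adjusted p = 0.22). For the first kind of arterial cell the same comparison gave 42 genes higher (1.07%) and 17 lower (0.434%), with 13 of 25 arterial markers higher and a median of 1.46. Both comparisons share the remaining cells. The 8 genes lower in the second kind were 4 hemoglobin genes (Hba-a1, Hba-a2, Hbb-bs and Hbb-bt), 3 surfactant protein genes (Sftpc, Sftpb and Sftpa1) and Lyz2, a lysozyme gene of macrophages and alveolar cells. Without cells high in hemoglobin or surfactant UMIs, described below, none of them passed.

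The 4 genes lower in the first kind than in the second were Nrp2 (18.8 and 28.2 CPM against 26.3 and 310), Maf (9.39 and 14.1 against 26.3 and 186), Rgcc (122 and 75.2 against 316 and 337) and Cenpe, a mitotic motor gene named after its values were seen (0 and 9.40 against 0 and 213). Lymphatic cells held 545 and 746 CPM of Nrp2 and 1089 and 1492 CPM of Maf. At least 2 lymphatic UMIs were present in 2 arterial cells, 1 per batch. A cell kept by Gja4 and Hey1 only held all Prox1 UMIs of the arterial cells in each batch, 11 and 9, and Prox1 is the master factor of lymphatic identity. Without these cells and those above 10000 UMIs, the differences were -0.57 for Nrp2 and -1.24 for Maf and did not pass, whereas Rgcc, a cell cycle regulator gene induced by complement, still passed (-1.71).

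Other cell types were looked for in the arterial cells. The 12 smooth muscle and pericyte markers stood at 145 and 55.3 CPM in sum in the arterial cells and at 182 and 91.6 CPM in the other endothelial cells, with 3 and 4 markers at 0. Of these, Acta2 had 2 UMIs in each batch and Cnn1 had none. The 8 fibroblast markers stood at 200.7 and 76.8 CPM against 269 and 83.5, with 2 and 3 at 0, and the 9 immune markers at 145 and 181 CPM against 304 and 273, with 7 and 3 at 0. No member of these lists passed in either direction (3, 4 and 3 tested). Over all genes 0.939% were called higher and 0.657% lower, so no call among so few does not show that such RNA was absent. The rule had also required no Ptprc UMI and fewer than 3 Col1a2 UMIs in both groups. Of 7 tested venous markers Nr2f2 fell and the others did not pass. Vwf, made by large vessels, was at 132 and 135 CPM against 84.1 and 64.0 (0.95 ± 0.26, adjusted p = 0.069).

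RNA of red cells and of surfactant-making alveolar cells was measured in the arterial cells too. The hemoglobin genes Hbb-bt (0.58 ± 0.13), Hbb-bs (0.51 ± 0.13) and Hba-a2 (0.50 ± 0.13) were called higher in the arterial cells, and Sftpc, the surfactant protein C gene, lower (-0.95 ± 0.16). In each batch 1 arterial cell, with 71.0% and 64.1% hemoglobin UMIs, held 35.0% and 73.5% of all hemoglobin UMIs of the arterial cells, while the median arterial cell had 3.05% and 0.503%, close to 3.13% and 0.517% in the other endothelial cells. Without cells of at least 20% hemoglobin or 1% surfactant UMIs (4 and 2 arterial, 44 and 24 other), the log2 fold changes were 0.005 for Hbb-bs, -0.006 for Hbb-bt, 0.02 for Hba-a2 and -0.07 for Sftpc, and none passed. Genes of red cells also differed within the arterial cells, with Hbb-bt higher in the first kind (3.02 ± 0.38). Without the same cells that difference was 0.55 and did not pass. The counts for arterial against other cells were then 82 higher and 56 lower, with 112 of the 119 genes among them. There Cxcl12 (2.19), Mgp (2.61), Igf2 (2.21) and Mecom (2.99) stood close to their values with all cells (2.16, 2.57, 2.2 and 2.90).

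The 202 cells with both arterial and capillary genes were counted with the other endothelial cells. They were deep, with median depths of 2979.5 and 5352.5 UMIs, and doublets were not called, so 2 cells under 1 barcode and 1 cell with both sets cannot be told apart. Their 30 markers stood at 7271 and 6307 CPM. Without them in the comparison 89 genes were higher and 73 lower, with 118 of the 119 genes among them, and Cxcl12 was at 2.79 on the log2 scale. Counted as arterial, they gave 47 higher and 40 lower, with 45 of the 119 genes among them.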

How the data were processed

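Each batch is 1 table of whole-number UMI counts per gene and cell. Read 2 was mapped by the authors with Bowtie2 2.2.7 (build mm10) and tagged by cell, UMI and exon with Drop-seq tools; they deposited raw counts without normalization or a mitochondrial filter. Counting by exon does not separate near-identical copies such as those of Ccl21a, and strand is not given in the sources used here. Doublets were not called. Members and gene lists were chosen with earlier results of these data known.

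Counts were summed per cell group and batch. The main test was edgeR 4.0.16 (R 4.3.3) quasi-likelihood with TMM, filterByExpr, the batch as a block and Benjamini-Hochberg adjustment over all genes tested, at 0.05. Genes of the rule entered library totals but not calls. In the fits by group, lymphatic cells were those with at least 2 UMIs of lymphatic genes, and these genes and the Ccl21a copies were also left out. Cell groups of a batch come from the same mouse, so the batch pairs them: batch deviations of arterial and other cells correlated at 0.48 over 7455 genes. Leaving out a batch gives values without a test. Alternatives included DESeq2 1.42.0, no block, no TMM, no gene filter, other cell limits and thinning to 1000 UMIs (seed fixed). Named genes were list members and, per comparison, up to 10 genes each way with the largest fold change, an adjusted p under 0.05, at least 50 CPM and 1 direction in both batches. The script was tested on simulated data, drawn with the same preset spread for every gene and not with a spread estimated from these data. In the arterial against other comparison (7502 genes), of changed genes tested 0 of 90 were found at a log2 fold change of 1 and 27 of 95 at 2, with 1 wrong of 28 calls. These shares hold for that preset spread and do not measure the sensitivity of the comparison of real cells. Python 3.11.15, numpy 2.4.6, pandas 2.3.3, scipy 1.17.1 and matplotlib 3.10.9 were used.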

Additional observations from a re-analysis of the deposited data

How the results depend on the processing

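The choice of test set the number of genes called more than any choice of cells. For arterial against other cells (70 higher, 49 lower), the fit without the replicate block called 0 and 0 (237 genes at an unadjusted p under 0.05, 595 with it), DESeq2 20 and 3, all of them among the 119, and no gene filter 39 and 122. Cells thinned to 1000 UMIs gave 34 and 11, a mitochondrial limit of 5% 25 and 17, and cells with at least 8 arterial UMIs left out 24 higher. There were 87 lower with at least 3 arterial UMIs and 74 lower without lymphatic cells. All 119 genes kept their direction without the block and with DESeq2. In the same order of no block and DESeq2, the counts were 1 and 0, then 29 and 15, against the Car4 set, 1 and 0, then 16 and 3, against the remaining cells, and 108 and 56, then 203 higher, against lymphatic cells. Without a gene filter 80 were lower against the Car4 set and 34 against the remaining cells, and with cells of 1500 to 6000 UMIs 30 and, against lymphatic cells, 140 were lower. Between the 2 kinds of arterial cell, no block gave 0 and 0 (192 unadjusted), DESeq2 1 lower, 1500 to 6000 UMIs 1 lower, no strong cells 5 and 0, and no cells with lymphatic UMIs or above 10000 UMIs 1 lower. For the first kind against the remaining cells these were 8 and 0 without block, 25 and 2 with DESeq2, 27 lower without filter, 26 and 9 at 1500 to 6000 UMIs, and 9 and 0 without strong cells. For the second kind they were 0 and 0 without block (108 unadjusted), 5 lower with DESeq2, 4 higher without filter, 3 higher without cells with lymphatic UMIs or above 10000 UMIs, and 0 lower without cells high in hemoglobin or surfactant. The arterial share was 4.62% with at least 3 arterial UMIs, 5.40% thinned, and 8.04% to 10.3% with 1 batch left out. The left-out genes without the block, none past the test, were at 3.87 (Gja5), 1.89 (Gja4), 3.87 (Bmx), 3.94 (Dkk2), 1.91 (Sema3g) and 1.29 (Hey1), and Hey1 with DESeq2 was at 1.32. Signs turned when 1 batch was left out for Ager (-3.29 to 0.0856) and Edn1 (-0.12 to 1.17), for Eln (-0.48) and Fbln2 (-0.28) without strong cells, Hpgd with the double-positive cells counted as arterial (0.0039), and thinned Notch1 (-0.040) and Sparcl1 (-0.076). Hba-a2, Hbb-bs and Hbb-bt turned with at least 3 arterial UMIs (-0.28, -0.23, -0.34), at 1500 to 6000 UMIs (-0.47, -0.46, -0.52) and thinned (-0.69, -0.53, -0.55), and Hbb-bt without cells high in hemoglobin (-0.0063). The cause of these shifts was not tested, beyond the fewer cells and genes that some settings keep. Of 57 named genes 15 passed with DESeq2 as well. With 62 and 122 arterial cells, low genes are not measured well enough to be called equal.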

Other observations

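Some genes with a large fold change in the arterial cells have low levels. S100a4, a calcium-binding protein gene, was at 55.4 and 67.6 CPM against 3.74 and 9.28 in the other endothelial cells (3.14 ± 0.53), Cytl1, a cytokine-like protein gene, at 48.5 and 70.6 CPM against 4.67 and 10.5 (2.93 ± 0.51), and Slc45a4, a transporter gene, at 55.4 and 52.2 CPM against 5.61 and 7.61 (2.96 ± 0.56). These 3 genes had both batches of the arterial cells above both batches of the others. Without cells of 8 or more arterial UMIs, Slc45a4 still passed (3.32), whereas S100a4 and Cytl1 were not among the genes tested. Among the genes that fell, Ccl21a and its near-identical copies Ccl21b, Gm13304, Gm10591 and Gm21541 share reads, so their separate values are uncertain. Ccl21a was at 55.4 and 70.6 CPM in the arterial cells and at 891 and 151 CPM in the others, which include the lymphatic cells.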
